A study of Brassica rapa subsp. chinensis with 24 samples.

Results

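How the SAB effect on leaves changed with age was measured in wild-type Choy-sum, a vegetable grown for its leaves (Brassica rapa subsp. chinensis), as the difference between the effect of SAB at day 18 and its effect at day 8. SAB stands for a mixed culture of Streptomyces with Agromyces-Bacillus, 3 bacteria that were put on the seeds before sowing. All 12 leaf libraries of the 24 in the series were used: SAB-treated and untreated plants of day 8, at the true leaf stage, and SAB-treated and untreated plants of day 18, before flowering, with 3 libraries in each of the 4 groups. Treated seeds had been immersed in the bacterial suspension, and seeds of untreated plants had been soaked in magnesium sulfate. Whole leaves were taken, and the labels call the replicates independent and biological without saying how many plants each holds. The dressing was given once, so day 8 and day 18 also differ in the time since contact with the bacteria.

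Bacteria that promote plant growth live on or near the root, supply nutrients or hormone-like compounds, and are also sensed by the plant. Leaves can respond although the bacteria are at the root, through signals that travel between the organs. Leaf transcripts also change as a leaf ages, so a treatment effect can be set against the course of age in untreated leaves.

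Counts were summed over all rows with the same locus identifier, which gave 20564 sums from 66566 rows. Of these, 17706 sums passed the filter on low counts. The identifiers have the format of Arabidopsis loci, and 14451 of the 20564 (70.3%) had 2 or more rows. A sum may therefore join several Choy-sum genes, and its level need not be that of a single gene. Whether the rows of an identifier are separate genes was not tested. The table does not pair identifiers with gene names or functions, and 0 of the 20564 identifiers were found in the reference gene table used here. The functions that respond at one age are therefore not named. Responses are described by identifier, by direction and size, by level, by tissue of expression and by their course with age, and the leaf label was not checked against marker genes. Levels are in CPM, counts scaled to a common library size with TMM factors, and folds are on the log2 scale.

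The 12 leaf libraries held 28068078 to 35151332 estimated counts, and 88.8% to 90.4% of the identifiers were above 0 in a library. Rank correlations between libraries of a group were 0.982 to 0.986 at day 8 in SAB leaves and 0.982 to 0.986 in untreated leaves, and 0.964 to 0.971 at day 18 in SAB leaves and 0.966 to 0.974 in untreated leaves. The median SD of log2 levels within a group was 0.18 for SAB and 0.17 for untreated leaves of day 8, and 0.24 in each of both groups of day 18. The first principal component, with 52.7% of the variance, set the ages apart, and the treatments lay apart on it within each age. At day 8 it ran from -71.0 to -70.4 in SAB leaves and from -83.2 to -76.0 in untreated leaves. At day 18 it ran from 89.5 to 98.3 in SAB leaves and from 46.8 to 69.4 in untreated leaves. The second, with 9.7%, ran from -17.4 to -4.01 in SAB leaves and -3.74 to 5.90 in untreated leaves of day 8, and from -46.8 to -34.5 in SAB leaves and 44.9 to 55.7 in untreated leaves of day 18. SAB and untreated libraries thus lay farther apart on it at day 18.

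The effect of SAB differed between the ages for 435 identifiers, 2.46% of those tested. It was higher at day 18 for 175 (0.988% of those tested) and lower for 260 (1.47%), by the edgeR quasi-likelihood test on the difference of the effects, with Benjamini-Hochberg adjusted p below 0.05. The median log2 change was 1.11 among the higher and -1.07 among the lower identifiers, against 0.02 over all identifiers tested, and 252 of the 435 changed at least 2-fold. In whole leaves, a change in the number of cells of a type and a change of RNA per cell cannot be told apart. The balance of the directions rests on the scaling. With library totals in place of TMM factors the median change over all identifiers was 0.27, and 571 were higher and 156 lower, so that 78.5% of the calls were higher in place of 40.2%.

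The number of calls rested on every library of day 8. It was 20 higher and 44 lower without SAB replicate 1 of day 8, 52 and 76 without replicate 2, and 18 and 35 without replicate 3. Without untreated replicates 1, 2 and 3 of that day it was 58 and 80, 33 and 47, and 17 and 31. At day 18 it was 98 and 134 without SAB replicate 1 and 102 and 157 without SAB replicate 2, whereas it was 210 and 389 without SAB replicate 3. Without untreated replicates 1, 2 and 3 of day 18 it was 72 and 112, 98 and 199, and 147 and 149. Fewer calls were thus made without any library of day 8, and without any library of day 18 other than SAB replicate 3. At either age, leaving out a library also leaves 2 in its group.

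Nearly all of the changed effects belonged to day 18. Of the 435 identifiers, 415 were called for the effect at day 18 and not at day 8 (161 higher and 254 lower in SAB leaves), 2 at day 8 and not at day 18, 5 at both ages and 13 at neither (edgeR adjusted p below 0.05 for each effect). The effect at day 18 was called for 14.4% of all identifiers tested (7.91% higher and 6.52% lower in SAB leaves) and the effect at day 8 for 0.424% (0.39% higher and 0.0339% lower), that is 2555 and 75 identifiers. With each day fitted alone 735 were called at day 18 and 226 at day 8, and DESeq2 called 3514 and 391, so the size of the gap between the ages rests on the fit. Without 1 library of day 8, the 415 became 48 to 135, without SAB replicates 1 and 2 of day 18 they became 223 and 253, and without untreated replicates 1 and 3 of day 18 they became 179 and 272. Among the 161 identifiers higher at day 18, the median log2 fold was -0.05 at day 8 and 1.12 at day 18. Among the 254 lower ones it was 0.14 at day 8 and -0.88 at day 18. All 3 SAB libraries lay above or below all 3 untreated libraries at day 18 in each of these 415 identifiers, against 28.8% of all identifiers tested. This follows in part from the selection. At day 8 the libraries were apart in 59 of the 161 and in 82 of the 254, against 19.9% of all identifiers tested. The effect at day 8 had an unadjusted p below 0.05 for 39 of the 161 (24.2%) and 42 of the 254 (16.5%), against 9.02% of all identifiers tested. Its sign was opposite to that of day 18 in 88 of the 161 (54.7%) and 207 of the 254 (81.5%). Over all identifiers tested, 53.5% had the same sign at both ages. The day 8 effect enters the contrast with a minus sign, so these day 8 counts also follow in part from the selection. A missing call at day 8 does not show that an identifier did not respond. The fitted log2 fold at day 8 lay within 0.5 of 0 for 139 of the 161 and 230 of the 254.

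**Figure D1:**
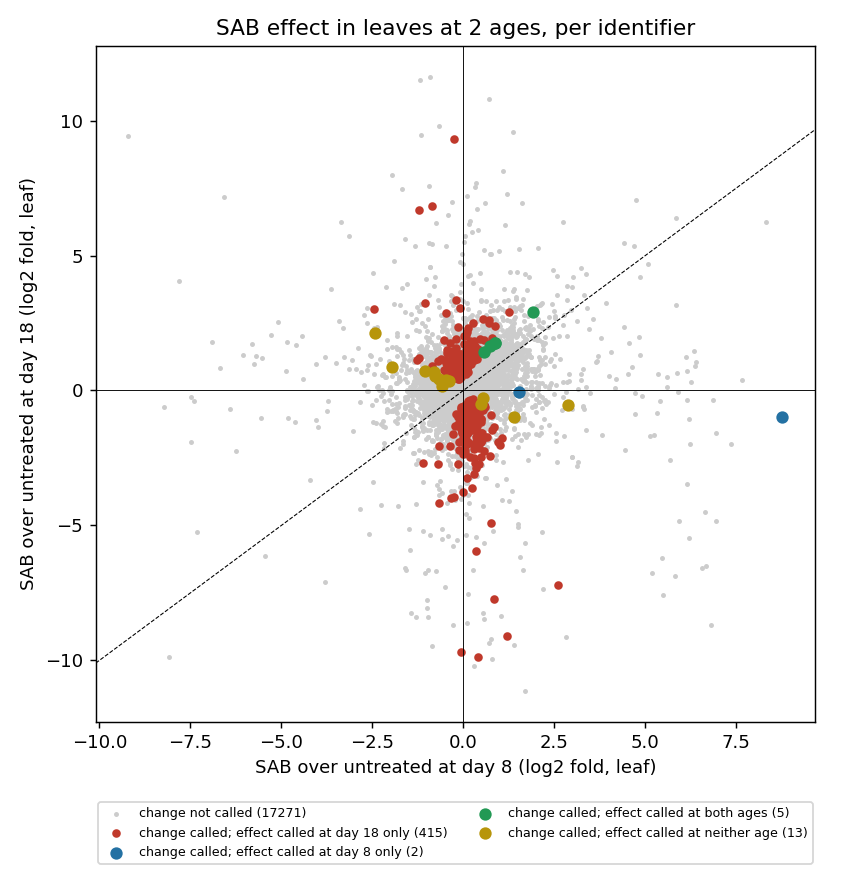
Log2 fold of SAB over untreated leaves at day 8 (horizontal) and day 18 (vertical) for the 17706 identifiers tested, with 1 point per identifier, colors for the identifiers whose effect changed with age, and a dashed line where both effects are equal. The 415 red points lie above or below the line at day 18 while their day 8 effects are mostly near 0, with medians of -0.05 for the higher and 0.14 for the lower identifiers.

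A call at one age and not at the other was seldom a called difference. Of 2488 identifiers called at day 18 and not at day 8, 415 (16.7%) also passed the test of the difference, and the other 2073 did not. Of those 2073, 1394 (67.2%) had the same sign of effect at day 8, against 53.5% of all identifiers tested. The 2073 were taken as not called for the change, so this share follows in part from the selection. The median size of the log2 change was 0.62 for the 2073, against 0.33 for all identifiers tested. The median SE of the change over all identifiers was 0.28, and that of the 2073 alone is not given.

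Most identifiers called at day 8 were also called at day 18. Of the 69 identifiers called higher in SAB leaves at day 8, 66 were also called higher at day 18, where 7.91% of all identifiers were. The median log2 fold of these 66 was 1.23 at day 8 and 1.55 at day 18, and it was larger at day 18 in 49 of them. The change was called for 5 of the 66, all with the larger effect at day 18. Of the 6 identifiers called lower at day 8, 1 was called lower at day 18, where 6.52% of all identifiers were. Day 8 calls themselves were few in the main fit (391 with DESeq2 and 226 with day 8 fitted alone), and their number moved with single libraries. There were 2 without SAB replicate 2 or untreated replicate 2 of day 8, 3 without SAB replicate 1 and 4 without untreated replicate 1. Without untreated replicate 3 of day 8 there were 31, and without SAB replicate 3 there were 62. Leaving out SAB replicate 1 of day 18 gave 131, and untreated replicate 3 of day 18 gave 118. Each other library of day 18, when left out, gave 51 to 63. Both ages were fitted together and share an estimate of the spread, but no library of one age enters the effect at the other.

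Among the 12 identifiers with the largest rises of the effect, those with the smallest p were AT5G27520 and AT3G51430, both called at day 18 and not at day 8. AT5G27520 stood at 26.7, 30.2 and 28.9 CPM in SAB leaves of day 8, against 25.4, 24.4 and 22.0 CPM in untreated leaves. At day 18 it stood at 66.4, 93.3 and 57.1 CPM in SAB leaves, against 10.2, 11.3 and 16.7 CPM in untreated leaves. The groups lay apart at both ages, by a small margin at day 8 and a wide one at day 18, where untreated leaves were below the level of day 8 and SAB leaves above it. The log2 fold was 0.26 (SE 0.20) at day 8 and 2.51 (SE 0.22) at day 18, a change of 2.25 (SE 0.29, edgeR adjusted p = 0.00975).

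AT3G51430 stood at 7.51, 9.59 and 11.5 CPM in SAB leaves of day 8, against 11.3, 14.2 and 7.52 CPM in untreated leaves. In mature leaves of day 18 it stood at 34.5, 37.5 and 16.3 CPM in SAB leaves, against 2.22, 3.67 and 2.76 CPM in untreated leaves. The groups overlapped at day 8 and lay far apart at day 18, with SAB replicate 3 the lowest of its group. Its effect changed by 3.55 (SE 0.49, edgeR adjusted p = 0.011). Over the 12 identifiers the change ran from 2.25 to 7.69. The libraries lay apart at day 18 in 11 and at day 8 in 5, against 28.8% and 19.9% of all identifiers tested. Only identifiers with libraries apart at an age or both were taken, so these counts follow in part from the selection.

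Among the 12 with the largest falls, those with the smallest p were AT5G07200 and AT1G49500. AT5G07200, a leaf-enriched identifier, stood at 16.1, 11.1 and 17.3 CPM in SAB leaves of day 8, against 17.2, 9.12 and 8.95 CPM in untreated leaves. At day 18 it stood at 0.0593, 0.0889 and 0.0598 CPM in SAB leaves, against 3.40, 6.01 and 4.30 CPM in untreated leaves. The groups overlapped at day 8 and lay apart at day 18, where levels were lower in both treatments and close to 0 in SAB leaves. Its change of effect was -6.30 (SE 0.55, edgeR adjusted p = 0.0018), and at these SAB levels of day 18 its size is uncertain. In limma-voom alone, of 21 alternatives, the call was lost (adjusted p = 0.0719).

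AT1G49500 stood at 76.8, 57.9 and 177 CPM in SAB leaves of day 8, against 51.2, 66.4 and 65.4 CPM in untreated leaves. By day 18 it stood at 0.0889, 0.267 and 0.508 CPM in SAB leaves, against 6.74, 9.14 and 10.1 CPM in untreated leaves. The groups overlapped at day 8, with SAB replicate 3 the highest, and lay apart at day 18. Its change of effect was -5.66 (SE 0.69, edgeR adjusted p = 0.00817), and this call too was lost in limma-voom alone (adjusted p = 0.103). Over the 12 identifiers the libraries lay apart at day 18 in 10 and at day 8 in 4, against 28.8% and 19.9% of all identifiers tested. These counts too follow in part from the selection.

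Of 8 identifiers called at day 8 and not at day 18, the change was called for 2 (25%), AT5G17350 and AT4G14680. AT5G17350 stood at 143, 149 and 155 CPM in SAB leaves of day 8, against 43.9, 50.9 and 60.7 CPM in untreated leaves. At day 18 it stood at 109, 162 and 179 CPM in SAB leaves, against 142, 118 and 204 CPM in untreated leaves. SAB leaves of day 8 thus already stood at the level that both treatments had at day 18. The log2 fold was 1.52 (SE 0.23) at day 8 and -0.04 (SE 0.22) at day 18, a change of -1.57 (SE 0.32, edgeR adjusted p = 0.037). This call was lost in 9 of 21 alternatives, with an edgeR adjusted p of 0.0708 to 0.0939 without any 1 library of day 8, and 0.0552 to 0.0618 without SAB replicate 1 or 2 or untreated replicate 1 of day 18.

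AT4G14680 had 2.85, 0.823 and 1.48 CPM in SAB leaves at day 8 and was listed at 0 in all 3 untreated libraries. It had SAB and untreated libraries apart at day 8 only. On day 18 it stood at 5.36, 1.51 and 1.29 CPM in SAB leaves, against 5.02, 4.16 and 6.99 CPM in untreated leaves. The change of the effect was called (edgeR adjusted p = 0.021), but no fold is given against a group at 0. It was lost in 5 of 21 alternatives, with an adjusted p of 0.122 in limma-voom and 0.0538 to 0.0592 in edgeR without SAB replicate 1 or 3 or untreated replicate 2 or 3 of day 8. Nearly all of its day 8 signal came from 1 row, at 84.83, 26.36 and 38.62 estimated counts in the SAB libraries, and the lowest values above 0 of that row were 12.79, 13.22 and 13.34, in libraries of day 18. If 1 read is worth such a step, the signal of day 8 is a few reads. Another row of AT4G14680 held 148.3, 130.88 and 102.44 estimated counts in untreated leaves of day 18, and 114.03, 33.7 and 29.98 in SAB leaves. In SAB leaves of day 8 that row held 1.33, 0 and 1.35. The sum thus joins rows that differ in their course with age.

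Of the 67 identifiers called at both ages, the change was called for 5. Each of these 5 had a larger rise at day 18, with log2 folds of 0.57 to 1.91 at day 8 and 1.42 to 2.92 at day 18. AT1G69890 stood at 112, 119 and 112 CPM in SAB leaves of day 8, against 75.8, 75.1 and 79.9 CPM in untreated leaves. At day 18 AT1G69890 had 130, 165 and 145 CPM in SAB leaves, against 56.9, 52.8 and 54.5 CPM in untreated leaves. AT5G10380 stood at 21.0, 24.1 and 19.2 CPM in SAB leaves of day 8, against 14.6, 13.0 and 11.2 CPM in untreated leaves. At day 18 AT5G10380 had 57.9, 60.9 and 51.9 CPM in SAB leaves, against 19.6, 16.6 and 18.4 CPM in untreated leaves. In both, SAB libraries lay above untreated libraries at each age. The change was 0.85 (SE 0.13, edgeR adjusted p = 0.0176) for AT1G69890 and 0.92 (SE 0.18, edgeR adjusted p = 0.0355) for AT5G10380. The call of AT1G69890 was lost in 4 of 21 alternatives, with an adjusted p of 0.149 in the edgeR fit of all libraries and 0.0538 to 0.0569 without SAB replicate 1 or 3 or untreated replicate 3 of day 8. That of AT5G10380 was lost in 11 of 21, with an adjusted p of 0.262 in the edgeR fit of all libraries, 0.0517 with a replicate block and 0.0518 to 0.0897 in 9 fits that left out a library, which were all but those without SAB replicate 2 of day 8, SAB replicate 3 of day 18 or untreated replicate 1 of day 18.

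**Figure D2:**
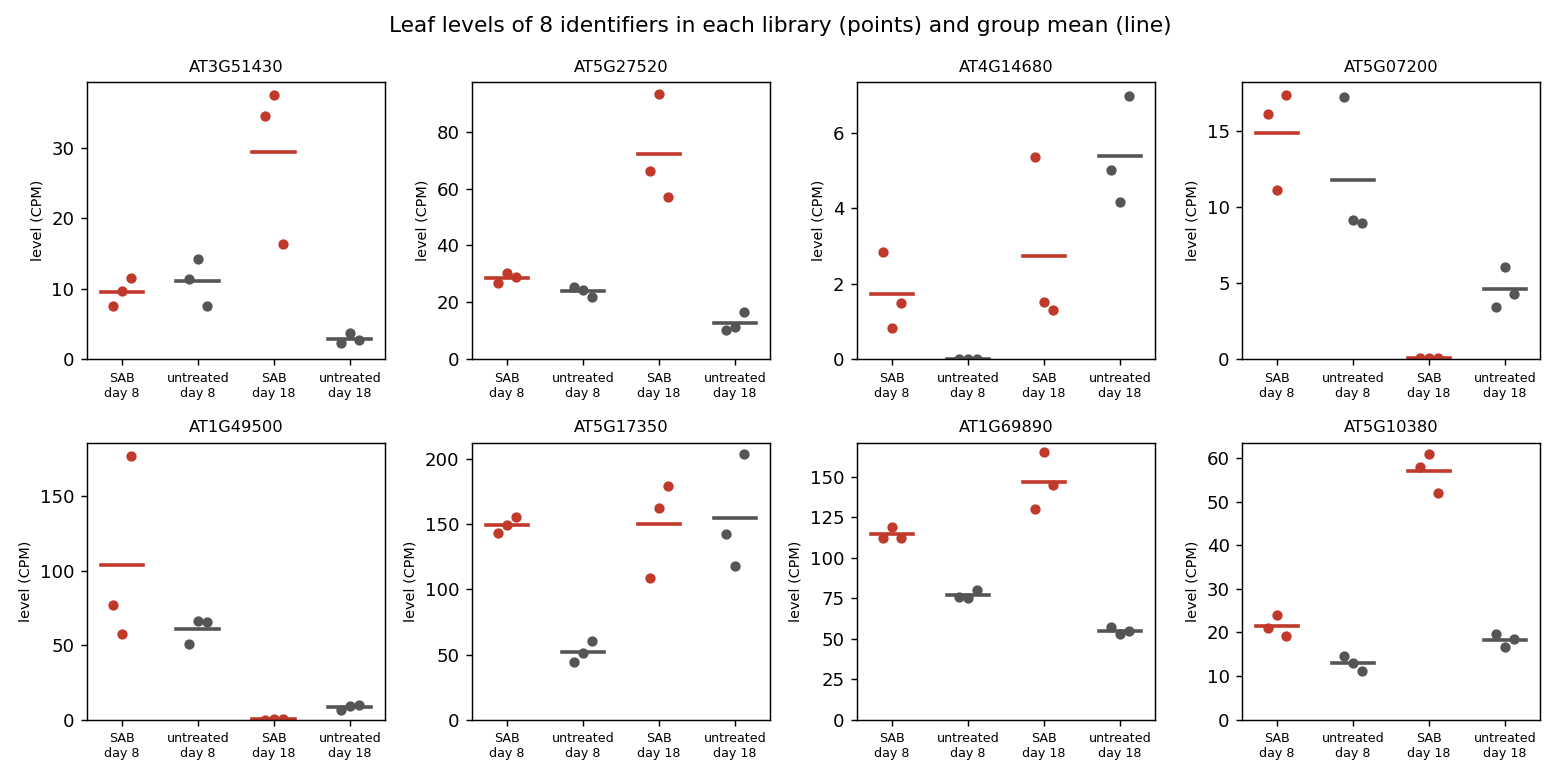
Level in CPM (vertical) of 8 identifiers in each of the 12 leaf libraries, with 1 point per library and a line at the group mean, for SAB (red) and untreated (grey) leaves of day 8 and day 18. AT5G27520 and AT3G51430 are higher in SAB leaves of day 18 than in the other 3 groups, AT5G07200 and AT1G49500 are near 0 in SAB leaves of day 18, and AT5G17350 differs between treatments at day 8.

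The 4 group means show which groups carried the change. Of the 175 identifiers with a higher effect at day 18, 157 had their highest mean in SAB leaves of day 18, against 34.2% of all identifiers tested. Of the 260 with a lower effect, 227 had their lowest mean in that group, against 32.5%. These groups enter the contrast, so this is a description of the calls. Between day 8 and day 18, 149 of the 175 rose in SAB leaves (edgeR adjusted p below 0.05), whereas in untreated leaves 61 rose, 47 fell and 67 were not called. Of the 260, 226 fell with age in SAB leaves, whereas in untreated leaves 104 fell, 67 rose and 89 were not called. The median log2 age difference of the 175 in SAB leaves was 1.18, against 0.09 in untreated leaves, and for the 260 the SAB median was -1.32, against -0.15 untreated. Over all identifiers tested, 49.4% differed with age in SAB leaves and 40.6% in untreated leaves.

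The identifiers with a lower effect were the more abundant ones. Their median level over the 4 groups was 57.0 CPM, against 17.3 CPM for those with a higher effect and 12.8 CPM for all identifiers tested. Of the 4427 identifiers with the highest levels, 150 were lower (3.39%, against 1.47% of all tested) and 45 higher (1.02%, near the 0.988% of all tested). Of the 4427 with the lowest levels, 20 were lower (0.452%) and 14 higher (0.316%). Together the 260 took 10.1%, 9.75% and 10.6% of the counts in SAB leaves of day 8, against 10.0%, 9.59% and 9.78% in untreated leaves, and 5.19%, 5.71% and 5.89% in SAB leaves of day 18, against 9.14%, 8.88% and 9.70% in untreated leaves. The 175 took 0.39%, 0.423% and 0.371% in SAB leaves of day 8, against 0.37%, 0.387% and 0.413% in untreated leaves, and 1.38%, 1.23% and 1.18% in SAB leaves of day 18, against 0.503%, 0.523% and 0.475% in untreated leaves. SAB leaves of day 18 held the lowest shares of the 260 and the highest of the 175, which is a description, since the contrast chose both sets. Of the 100 most abundant identifiers, 14 were lower, where 1.47% of all tested were, the median change was -0.62 and 96.0% were below 0, where 48.6% of all identifiers tested were. With library totals in place of TMM factors their median was -0.37, beside 0.27 over all. The 14 became 1 to 4 without 1 library of day 8, 4 without SAB or untreated replicate 1 of day 18, and for that day also 5 without untreated replicate 3, 9 without SAB replicate 2 and 22 without SAB replicate 3.

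Of the 260 identifiers with a lower effect, 143 were leaf-enriched, against 2507 of all 17706 identifiers tested. Leaf-enriched identifiers are those with a mean log2 level at least 4-fold higher over all 12 leaf libraries than over all 12 root libraries, and root-enriched ones the reverse. Each leaf group has equal weight in that mean, so the choice does not use the contrast. Of 2507 leaf-enriched identifiers, 143 had a lower effect at day 18 (5.70%, against 1.47% of all tested) and 11 a higher one (0.439%, against 0.988%), and the median change was -0.28, against 0.02 over all identifiers tested. At day 8 their median effect was 0.08, with 3 higher (0.12%, against 0.39% of all tested) and 1 lower (0.0399%, near the 0.0339% of all tested). At day 18 it was -0.20, with 102 higher (4.07%, against 7.91% of all tested) and 501 lower (20%, against 6.52%). Of 1397 root-enriched identifiers, 15 had a higher effect at day 18 (1.07%, near the 0.988% of all tested) and 9 a lower one (0.644%), and the median change was 0.20. Their median effect was 0.06 at day 8 and 0.29 at day 18. At day 18, 147 were higher (10.5%, against 7.91% of all tested) and 35 lower (2.51%, against 6.52%). Among the 13802 other identifiers, 149 were higher (1.08%, near the 0.988% of all tested) and 108 lower (0.782%, against 1.47%), with a median change of 0.05. Calls are edgeR adjusted p below 0.05 over all identifiers tested. With library totals in place of TMM factors, 87 leaf-enriched identifiers were lower and 35 higher, with a median change of -0.03 beside 0.27 over all, and the root-enriched median was 0.45. Without SAB replicates 1, 2 and 3 of day 8, 19 of 44, 34 of 76 and 12 of 35 lower calls were leaf-enriched, and without untreated replicates 1, 2 and 3 of that day 41 of 80, 18 of 47 and 12 of 31. Without SAB replicates 1, 2 and 3 of day 18 it was 63 of 134, 82 of 157 and 213 of 389, and without untreated replicates 1, 2 and 3 it was 52 of 112, 112 of 199 and 68 of 149. The leaf-enriched median ran from -0.32 to -0.24 over these fits. The 15 higher root-enriched identifiers became 1 to 4 without 1 library of day 8 and 3 to 17 without 1 of day 18.

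**Figure D3:**
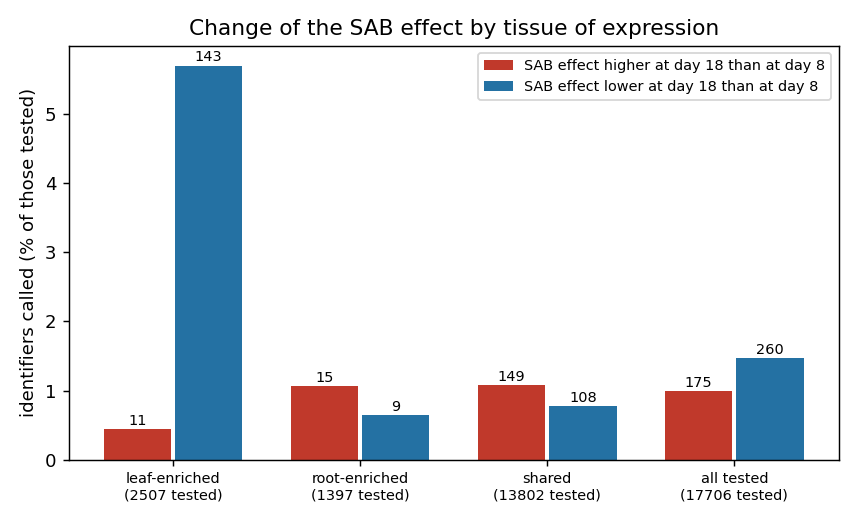
Percent of identifiers whose SAB effect was higher (red) or lower (blue) at day 18 than at day 8, for leaf-enriched, root-enriched and shared (neither) identifiers and for all tested, with the number called above each bar. The lower calls reach 5.70% of the leaf-enriched identifiers, against 1.47% of all tested.

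Leaf-enriched identifiers took 53.8%, 52.0% and 54.2% of the counts in SAB leaves of day 8, against 53.2%, 52.5% and 50.7% in untreated leaves. At day 18 they took 45.0%, 45.8% and 45.2% in SAB leaves, against 54.1%, 51.7% and 56.4% in untreated leaves. The difference of SAB and untreated leaves was 1.2 percentage points at day 8 and -8.74 points at day 18, a change of -9.94 points (exact two-sided permutation test of no SAB effect at either age, with the treatment labels permuted within each day, p = 0.015, or 0.03 adjusted over the 2 shares). This p refers to no SAB effect at either age, not to an equal effect at both. Both shares were chosen after the values were seen, so the p describes them and tests no prior claim. A share weighs identifiers by their counts, so abundant members weigh more in it, and the median leaf-enriched change with library totals was -0.03. The difference alone had an exact permutation p of 0.3 at day 8 and 0.1 at day 18, the smallest that 3 libraries against 3 allow.

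Root-enriched identifiers took 0.612%, 0.646% and 0.56% in SAB leaves of day 8, against 0.537%, 0.577% and 0.634% in untreated leaves. At day 18 they took 1.3%, 1.11% and 1.19% in SAB leaves, against 0.719%, 0.789% and 0.787% in untreated leaves. The change of the difference was 0.42 points (exact two-sided permutation test, p = 0.075, also 0.075 adjusted over the 2 shares). The same limits hold for this p. A difference in the cells or parts of the leaf that were sampled was not tested.

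**Figure D4:**
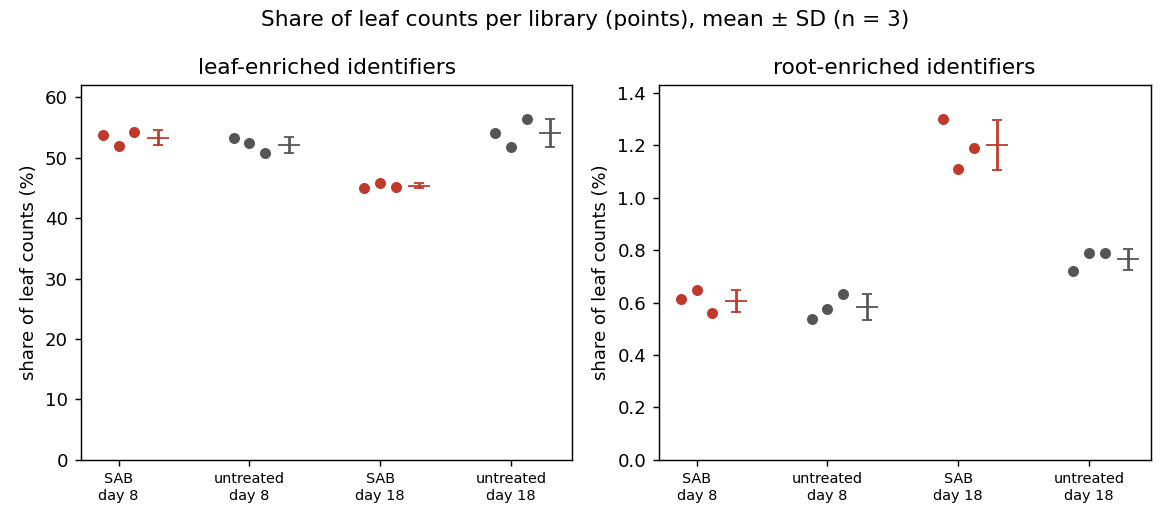
Share of the counts of each leaf library (percent, vertical) taken by leaf-enriched (left) and root-enriched (right) identifiers in SAB (red) and untreated (grey) leaves of day 8 and day 18, with points for libraries and bars for mean ± SD (n = 3). SAB leaves of day 18 average 45.3% for leaf-enriched identifiers, against 54.1% in untreated leaves of that day.

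Roots offer libraries that the leaf contrast does not use. In roots the effect changed with age for 1.07% of the 18973 identifiers tested (edgeR adjusted p below 0.05). It was higher at day 18 for 0.822% and lower for 0.248%. Of the 175 identifiers with a higher effect in leaves at day 18, 172 were tested in roots and 11 (6.4%) were called higher there. Their median change in roots was 0.44 and 145 of the 172 were above 0, against a median of -0.01 and 49.3% above 0 for all identifiers tested in both tissues. Of the 260 with a lower effect, 246 were tested in roots, with 7 called lower (2.85%) and 1 higher (0.407%). Their median change in roots was -0.46 and 201 of the 246 were below 0, against 50.7% of all. In all, 19 identifiers were called in both tissues, 4.37% of the leaf calls and 9.36% of the root calls, 18 of them in the same direction. Of the 8 identifiers printed, the change was called in roots for AT3G51430 (2.48, edgeR adjusted p = 0.0311) and AT5G10380 (2.80, edgeR adjusted p = 0.0467). It was 1.76 for AT5G27520 and 1.63 for AT1G69890, and -0.55 for AT5G07200, -0.86 for AT1G49500 and -0.21 for AT4G14680, with edgeR adjusted p of 0.0676 to 0.955. For AT5G17350 it was 1.32 in roots (edgeR adjusted p = 0.0719), opposite in sign to leaves. Without untreated root replicate 3 of day 8, whose mean rank correlation to its group was 0.965, against 0.977 and 0.978 for the other two, the medians in roots were 0.46 and -0.45. Deviations from the group means were correlated between a leaf library and the root library with its number, at 0.386 to 0.461 over identifiers at day 18 and 0.00343 to 0.114 at day 8. Leaf and root values of day 18 thus share part of their deviations, and no p is given for the likeness.

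Sums can hide rows that differ. Of the 435 identifiers, 142 had 1 row tested and 293 had 2 or more, and in 189 of the 293 all rows changed in the direction of the sum. A row was called by itself in the same direction for 118 of the 435 (0.443% of 46762 rows tested were called). Where rows are alike in sequence, estimated counts can move from one to the other. Which row changed is thus uncertain where 2 or more rows were tested and none was called. Of AT3G51430, AT5G07200, AT1G49500, AT5G17350 and AT1G69890, 1 row each was called.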

How the data were processed

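Polyadenylated RNA was sequenced, per the labels' protocols, in 12 leaf libraries, the ones analysed, and 12 root libraries, used for comparison. The authors deposited 1 table of estimated counts per row and library, which need not be whole. Their steps differ by row: 3571 rows were above 0 in 1 leaf library only, at a median of 8.46 (quartiles 3.75 and 15.8). Many reads may thus be worth more than 1 unit, in which case low levels rest on fewer reads than they seem to, and the number of reads behind a value is not known. Trim Galore, Bowtie2 and kallisto appear in the submitters' processing notes, with no version or role, and the reference used for counting is not given in the sources used here. Estimated counts were summed per identifier, rounded, filtered with filterByExpr (10 in a library, 15 in all) and scaled with TMM. A model of 4 group means was fitted with edgeR 4.0.16 (quasi-likelihood, robust; limma 3.58.1, R 4.3.3), and p-values were adjusted after Benjamini and Hochberg over all 17706 identifiers. An SE is the size of the log2 fold over the root of its F value. DESeq2 1.42.0 was run as an alternative. P-values of the fit set differences of group means against the spread between libraries of a group. The number of plants behind that spread is not known.

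Printed identifiers come from those whose change was called, whose group mean reached 5 CPM somewhere and whose libraries were apart at an age or both. The 12 largest rises and 12 largest falls were taken, with those called at day 8 only and at both ages. Of each set the 2 with the smallest p are printed. This narrowing, the sets by tissue and level, the count shares and the root comparison were chosen after the values were seen. Members and lists were chosen with earlier results of these data known. Lists by function could not be matched to identifiers and were not used.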

Additional observations from a re-analysis of the deposited data

Results flagged for a closer look

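The effect of SAB on leaves differed between day 18 and day 8, by a test of the difference itself, for 175 identifiers with a higher and 260 with a lower effect at day 18 (edgeR, adjusted p below 0.05). Of the identifiers printed, the effect was higher at day 18 for AT5G27520 (adjusted p = 0.00975) and AT3G51430 (adjusted p = 0.011). It was lower at day 18 for AT5G07200 (adjusted p = 0.0018) and AT1G49500 (adjusted p = 0.00817). It was also lower at day 18 for AT5G17350 (adjusted p of the change = 0.037) and AT4G14680 (adjusted p of the change = 0.021), whose effect was called at day 8 only. For 2 identifiers called at both ages the effect was larger at day 18, AT1G69890 (adjusted p = 0.0176) and AT5G10380 (adjusted p = 0.0355). All adjusted p are those of the change, from the edgeR fit of 12 leaf libraries. Groups of 3 are too small for a test of single libraries.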

How the results depend on the processing

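DESeq2 called 541 higher and 848 lower changes, 1187 identifiers at day 18 only and 39 at day 8 only, and 391 for the effect at day 8. Library totals without TMM factors, added after seeing the data, gave 571 higher, 156 lower and 671 at day 18 only. Rows that were not summed gave 59 identifiers higher, 128 lower, 180 at day 18 only, 1 at day 8 only and 21 for the effect at day 8. The fit of all 24 libraries gave 119 for the effect at day 8 and 6 at day 8 only. With each day fitted alone, also added after seeing the data, 735 were called at day 18 and 226 at day 8, in place of 2555 and 75. The cause was not tested. Leaving out 1 leaf library gave 17 to 210 higher, 31 to 389 lower, 1770 to 2400 at day 18, 2 to 131 at day 8, 48 to 571 at day 18 only and 0 to 2 at day 8 only. Same-numbered libraries of different groups had correlations of deviations of -0.1 to 0.0751, and the best match in another group had the same number in 15 of 36 cases, so the numbers do not pair them. The fit with a replicate block gave 66 higher, 83 lower and 143 at day 18 only. Other counts stayed within 1.5 times of the main ones under the size factors of DESeq2, both other filters, limma-voom and the fit without robust estimation. Over 630 refits of single identifiers (30 identifiers under 21 alternatives each), 390 stayed called, 240 did not pass and the sign held in each.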
